A study of Mus musculus with 8 samples.

Results

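The genes described here are 36 immediate early response genes, transcripts that rise within minutes to an hour of a stimulus, chosen by symbol from a list of genes induced by gonadotropin-releasing hormone (GnRH) and by the dissociation of cells. Each of the 36 symbols was found in the count table, as 37 of its 55523 entries, because *Junb* has 2 entries. The samples are pituitary gonadotropes, the pituitary cells that make luteinizing hormone and follicle-stimulating hormone. They were collected by fluorescence-activated sorting of EGFP-expressing cells from Ad4BP-BAC-EGFP mice, with 4 female and 4 male samples. All 8 samples carry the same transgene, an artificial chromosome in which regulatory sequence of *Nr5a1* (Ad4BP) drives EGFP, so the sort takes cells in which that sequence is active. No undissociated control was used here. Age, any treatment and the number of animals per sample are not given in the sources used here, so p-values measure the spread between these samples. Samples are named by sex and replicate number. Male 1 is shown apart, because the study left it out of its analysis, and the comparison of the sexes used males 2 to 4 and females 1 to 4.

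Immediate early response genes are transcribed from factors that already exist in the cell, such as SRF with its ELK partners and CREB, which are activated by kinases. In gonadotropes, GnRH acts through its receptor, protein kinase C, calcium and the MAP kinases to induce *Egr1*, *Fos* and *Jun*, and EGR1 and AP-1 dimers of FOS and JUN proteins act on the promoters of *Lhb* and *Fshb*. Most of these transcripts are also short-lived, and many of them are induced when tissue is dissociated and cells are sorted, so that a level in sorted cells can hold both.

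The total count was between 18774578 and 31302588 per sample, and values are given as CPM, counts scaled to a common library total with the TMM factors of edgeR. The floor of 3 counts was between 0.0921 and 0.146 CPM and covers counting error only. Each of the 5 gonadotrope markers (*Lhb*, *Fshb*, *Cga*, *Gnrhr* and *Nr5a1*) had counts in every sample, and their sum was 21488 to 34863 CPM in the females and 67929.6 to 75717 CPM in males 2 to 4. Male 1 stood apart, with *Malat1*, a nuclear RNA, at 11.1% of its counts against 1.27% to 1.59% in the females and 0.706% to 0.925% in the other males, and with *Nr5a1*, the gene whose regulatory sequence drives the EGFP, at only 16.3 CPM, where the females had 862 to 1266 CPM and males 2 to 4 584 to 801 CPM. The summed markers of other hormone cells (7 genes, led by *Gh*, *Pomc* and *Prl*) were 36423 to 98149.7 CPM in the females, 93869.7 to 187005 CPM in males 2 to 4 and 50646 CPM in male 1, and none of the 7 was at 0 in any sample. The 5 immune markers summed to 21.3 to 54.5 CPM, 37.3 to 54.9 CPM and 31.9 CPM in the same order, with *Aif1* at 0 in 6 of the 8 samples. In such sorted bulk samples, fewer cells of a type and less RNA per cell cannot be told apart, and the part of these cells in the values below was not tested.

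RefSeq promoter sequences (GRCm38.p6) were matched for 28 of the 36 genes, and 250 bases before the transcription start are printed for 5 of them. *Fos*, *Btg2* and *Zfp36* are shown as 3 of the 5 highest of the 36 genes per kilobase of exon, chosen after the motifs were found because they hold different ones. *Btg1* and *Egr4* are shown because they were the 2 genes that came nearest to a call between the sexes, in opposite directions. Capitals mark matches, on both strands, to TGACGTCA (the cAMP response element), TGACG (part of it, so every TGACGTCA also holds it), the CArG box (the SRF motif), GCGGGGGCG or GCGTGGGCG (EGR motifs) and TATAAA. The coordinates are chr12:85473640-85473889 on the plus strand for *Fos*, chr1:134079156-134079405 on the minus strand for *Btg2*, chr7:28379229-28379478 on the minus strand for *Zfp36*, chr10:96616751-96617000 on the plus strand for *Btg1* and chr6:85513590-85513839 on the minus strand for *Egr4*, and each sequence is written 5′ to 3′ on the strand of its gene.
Fos: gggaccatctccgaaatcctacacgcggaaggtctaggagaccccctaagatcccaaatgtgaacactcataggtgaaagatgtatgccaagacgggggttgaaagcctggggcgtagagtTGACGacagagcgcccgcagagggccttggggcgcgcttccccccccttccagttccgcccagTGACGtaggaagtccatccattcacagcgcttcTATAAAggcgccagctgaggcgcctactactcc
Btg2: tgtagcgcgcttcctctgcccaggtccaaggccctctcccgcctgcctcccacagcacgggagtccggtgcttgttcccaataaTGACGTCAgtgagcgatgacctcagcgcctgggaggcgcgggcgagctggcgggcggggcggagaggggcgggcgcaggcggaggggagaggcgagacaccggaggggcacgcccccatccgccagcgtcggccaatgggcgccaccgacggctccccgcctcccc
Zfp36: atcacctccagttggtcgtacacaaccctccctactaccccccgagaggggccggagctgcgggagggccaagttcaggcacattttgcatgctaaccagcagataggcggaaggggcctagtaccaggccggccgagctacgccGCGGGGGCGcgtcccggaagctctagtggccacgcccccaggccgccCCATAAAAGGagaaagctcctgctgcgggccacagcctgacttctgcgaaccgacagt
Btg1: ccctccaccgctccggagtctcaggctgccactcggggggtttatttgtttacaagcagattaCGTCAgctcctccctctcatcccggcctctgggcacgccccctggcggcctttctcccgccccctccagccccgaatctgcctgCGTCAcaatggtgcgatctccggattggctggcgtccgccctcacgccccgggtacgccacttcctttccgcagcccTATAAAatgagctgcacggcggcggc
Egr4: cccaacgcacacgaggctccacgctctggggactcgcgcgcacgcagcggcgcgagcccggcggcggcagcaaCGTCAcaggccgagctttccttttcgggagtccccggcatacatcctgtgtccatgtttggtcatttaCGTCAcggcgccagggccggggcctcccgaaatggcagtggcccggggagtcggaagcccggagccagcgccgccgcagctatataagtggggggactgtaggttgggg

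*Fos* holds TGACG 129 and 66 bases before its start and TATAAA 33 bases before it. *Btg2* holds the whole TGACGTCA at 166 bases, and *Zfp36* holds an EGR motif at 105 bases and a CArG box at 58 bases. *Btg1* and *Egr4* each hold TGACG on the other strand, at 187 and 103 bases in *Btg1* and at 177 and 109 bases in *Egr4*, and *Btg1* also holds TATAAA 26 bases before its start. Among the 28 genes matched, 14 held TGACG (50.0%, against 19.8% of the 27025 genes with a promoter sequence of this length), 2 held TGACGTCA (7.14% against 1.77%), 3 held a CArG box (10.7% against 1.62%), 10 held an EGR motif (35.7% against 3.47%) and 6 held TATAAA (21.4% against 14.3%). Besides *Zfp36*, the CArG box was found at *Egr2* and *Srf*, and besides *Btg2*, TGACGTCA was found at *Maff*. Only the 250 bases before the start were searched. A motif farther away, at *Fos* or any other gene, would not be found, and genes without a matched sequence were not searched. These matches are a description of the sequence, and nothing was measured at these promoters here.

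Immediate early response transcripts were abundant in every sample. Their counts made up 2.48% to 3.41% of all counts in the females, 2.296% to 2.49% in males 2 to 4 and 2.93% in male 1. The share was highest in female 1, and the other 3 females (2.48% to 2.73%) overlapped males 2 to 4. *Fos* alone took 0.686% to 0.895% of the counts in the females and 0.637% to 0.682% in the 3 males. Averaged over the 7 samples, 7 of the 36 genes reached 1000 CPM, 17 reached 100 CPM and 3 (*Srf*, *Ptgs2* and *Fosl1*) were under 10 CPM. Levels were compared between genes as CPM per kilobase of the exons annotated in GENCODE M21. On this scale 19 of the 36 genes lay at or above percentile 90 of the 20104 genes tested that have a length, and 9 at or above percentile 99.

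**Figure D1:**
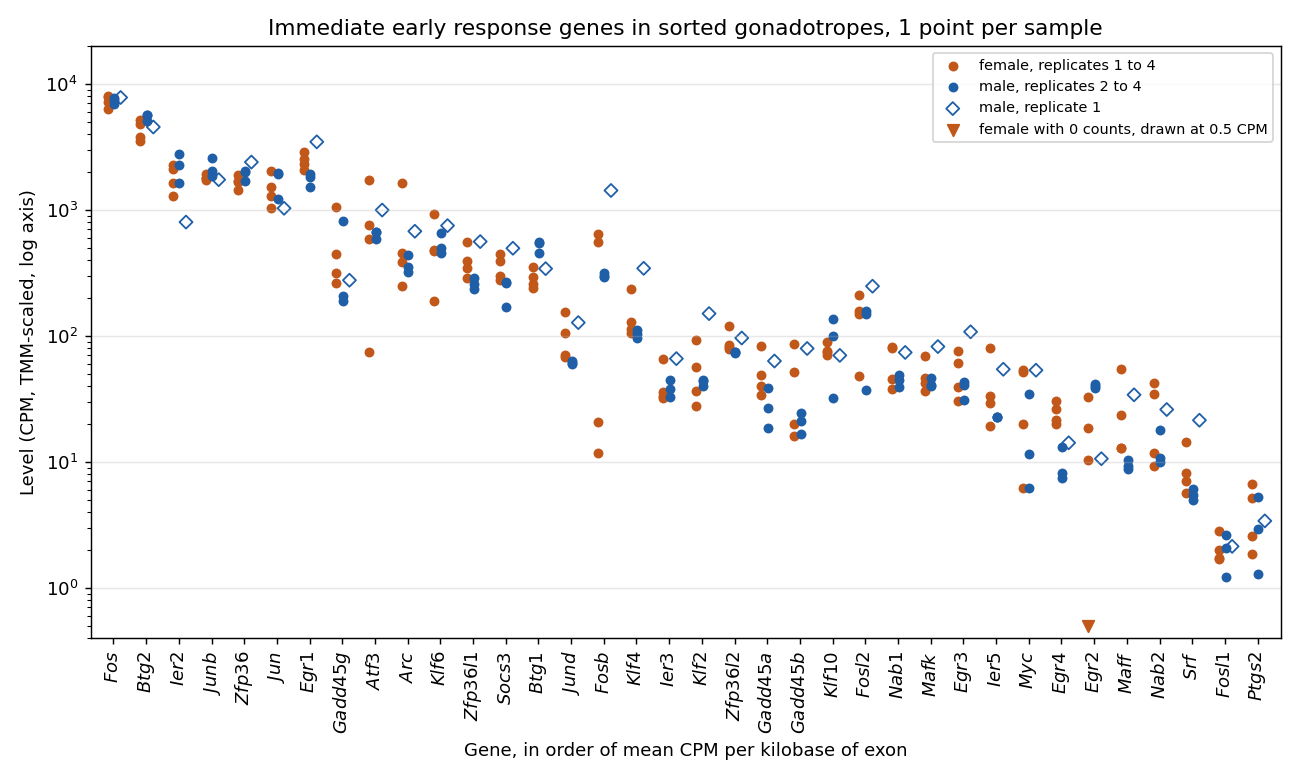
Each point is the level of a gene in a sample in CPM on a log axis, for females (4 points), males 2 to 4 (3 points) and male 1 (open diamond), with the genes in order of mean CPM per kilobase of exon. *Fos* lies between 6279.5 and 8022 CPM in all 8 samples, whereas *Fosb* and *Atf3* have females far below the other samples and *Egr2* has 1 female with 0 counts.

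The AP-1 genes encode basic leucine zipper proteins that bind DNA as dimers, with FOS proteins needing a JUN partner. *Fos* (chr12:85473890-85477273 of mm10, plus strand) was the highest of the 36 genes per kilobase, at 3119 ± 258 CPM per kilobase (SD, n = 7). It was 8022, 6279.5, 7855 and 7187 CPM in females 1 to 4, 7456, 6887 and 7670.0 CPM in males 2 to 4 and 7797 CPM in male 1. The sexes overlapped, and male 1 lay among the other samples. On the log2 scale the males differed by -0.03 (standard error 0.13; adjusted p = 0.934, edgeR quasi-likelihood test), and its sign changed when single samples were left out.

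*Junb*, a JUN protein that restrains growth in many cells, was 854 ± 124 CPM per kilobase (SD, n = 7) and the steadiest of the AP-1 genes in females. Its levels were 1796, 1939, 1804 and 1733 CPM in the females, 2045, 1866 and 2566 CPM in males 2 to 4 and 1737 CPM in male 1. Only male 4 lay well above the rest. The other entry of that name held between 0.491 and 3.0997 CPM over the 8 samples and was kept apart. *Jun* was 2054, 1292, 1532 and 1027 CPM in the females, 1229.9, 1920.0 and 1957 CPM in males 2 to 4 and 1031 CPM in male 1, so that males 2 to 4 lay inside the range of the females. *Jund* was lower, at 156, 70.3, 67.5 and 106 CPM in the females and 61.5, 59.6 and 62.7 CPM in males 2 to 4, and these 3 males lay below every female, whereas male 1 had 128 CPM. Within the JUN family the share per kilobase of *Junb* was 51.4% to 66.1% in the females and 55.98% to 67.8% in males 2 to 4, and *Jund* held at most 6.62% in any sample.

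*Fosb* (chr7:19302696-19310051, minus strand) did not follow *Fos*. It had 484 and 242 counts in females 1 and 2 and 18285 and 14788 in females 3 and 4, or 20.7, 11.8, 561 and 639 CPM. Males 2 to 4 lay close together between these levels, at 297, 292 and 317 CPM, and male 1 was far above all others at 1426 CPM. *Fosb* was thus 0.0703% to 3.24% of the FOS family per kilobase in the females, 1.48% to 1.56% in the 3 males and 6.398% in male 1, with *Fos* holding at least 92.9% in each sample. *Fosl2* was 47.9 to 213 CPM in the females and 37.2 to 157 CPM in males 2 to 4, with 1 low sample in each sex. *Fosl1* was near the bottom of the 36 genes, at 1.69 to 2.82 CPM and 1.23 to 2.64 CPM.

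*Atf3*, a stress-induced repressor of the same class, was 1729, 589, 74.6 and 756 CPM in females 1 to 4, 663, 668 and 589 CPM in males 2 to 4 and 997 CPM in male 1. Females 1 and 3 lay on either side of all the other samples, and the rest were close to each other. The small MAF proteins lack an activation domain and pair with other zipper proteins. *Maff* was 55.1, 12.98, 12.95 and 23.6 CPM in the females and 9.26, 8.76 and 10.4 CPM in males 2 to 4, all 3 below the lowest female, and 34.1 CPM in male 1, above 3 of the 4 females. *Mafk* was 36.9 to 68.8 CPM and 40.02 to 46.3 CPM in the same groups.

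The EGR proteins are zinc finger activators, and NAB1 and NAB2 are corepressors that bind them. *Egr1*, the EGR protein that acts on the *Lhb* promoter, held 93.6% to 96.2% of the family per kilobase in the females and 93.8% to 94.1% in males 2 to 4. It was 2874, 2073, 2329 and 2545 CPM in the females and 1516, 1809.9 and 1937 CPM in males 2 to 4, so that each of these males lay below each female. Male 1 was the highest of the 8 samples, at 3467 CPM. The log2 fold change was -0.51 (standard error 0.16, adjusted p = 0.135 from edgeR), which did not pass the threshold of 0.05, and with male 1 included it was -0.17 (adjusted p = 0.904).

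*Egr4* (chr6:85511121-85513589, minus strand) was 30.5, 20, 26.3 and 21.7 CPM in females 1 to 4, 7.41, 8.23 and 13.2 CPM in males 2 to 4 and 14.2 CPM in male 1. All 4 males lay below all 4 females. The log2 fold change of males 2 to 4 over the females was -1.38 (standard error 0.27), a fold of 0.383, with an adjusted p of 0.0525 from edgeR, just outside the threshold. The two-sided exact permutation test gave p = 0.0286, the smallest that the 35 splits allow. This p is not adjusted, and the gene was singled out by its values. Groups did not overlap for 22.3% of all genes tested. *Egr4* was called with DESeq2 (adjusted p = 3.02e-04) and with library size alone (adjusted p = 0.0327). On simulated counts with a log2 change of 3, 36.3% of the DESeq2 calls were false. Over the 12 alternatives for *Egr4* the adjusted p was between 3.02e-04 and 0.253. Relative to *Egr1*, *Egr4* was 0.0178 to 0.0236 per kilobase in the females, 0.00949 to 0.0142 in males 2 to 4 and 0.00854 in male 1.

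*Egr2* (chr10:67535475-67542188, plus strand) had 0 counts in female 1, 18.5, 32.6 and 10.4 CPM in females 2 to 4, 39.7, 41.8 and 38.4 CPM in males 2 to 4 and 10.6 CPM in male 1. The 3 males lay above every female, but the females were spread so widely that the log2 fold change of 1.35 had a standard error of 1.28 (adjusted p = 0.636 from edgeR). Without female 1 it was 0.95 (standard error 0.40, adjusted p = 0.286), and without female 3 it was 2.03. *Egr3*, *Nab1* and *Nab2* overlapped between the sexes, at 30.6 to 75.7, 38 to 81.002 and 9.36 to 41.98 CPM in the females and 31.2 to 43.4, 39.6 to 49.2 and 10.01 to 17.98 CPM in males 2 to 4.

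**Figure D2:**
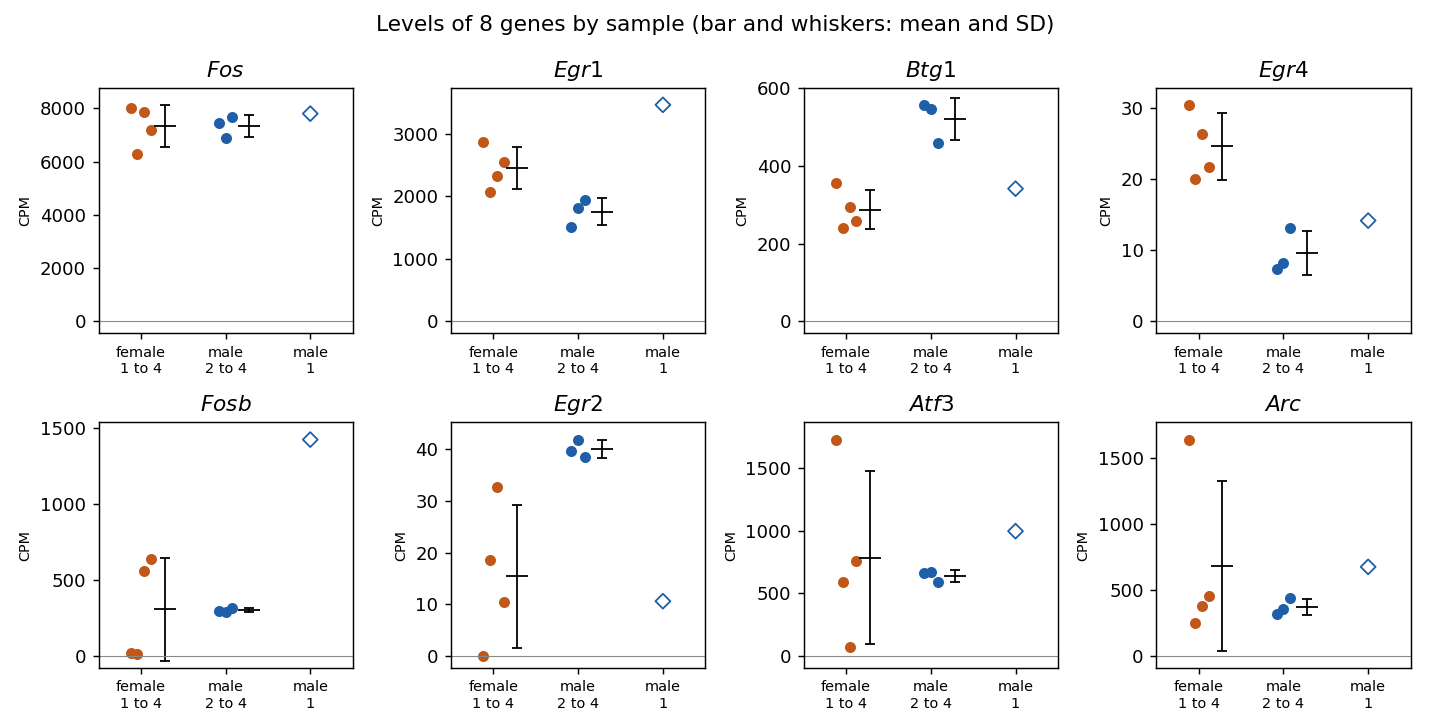
Points are the levels in CPM of *Fos*, *Egr1*, *Btg1*, *Egr4*, *Fosb*, *Egr2*, *Atf3* and *Arc* in the 4 females, in males 2 to 4 and in male 1 (open diamond), and bars with whiskers are the mean and SD of the first 2 groups. *Egr4* is at most 14.2 CPM in the males and at least 20 CPM in the females, and *Fosb* is split among the females.

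The genes of the BTG family encode antiproliferative proteins that bind deadenylases. *Btg2* followed *Fos* among the 36 genes per kilobase, at 1754 ± 305 CPM per kilobase (SD, n = 7). It was 4791, 3803, 5168 and 3551 CPM in the females, 5632, 5666 and 5060.3 CPM in males 2 to 4 and 4547 CPM in male 1, and the lowest of the 3 males lay inside the range of the females (log2 fold change 0.30, standard error 0.15, adjusted p = 0.340 from edgeR). *Btg1* (chr10:96617006-96622809, plus strand) was 355, 240.4, 296 and 259 CPM in females 1 to 4 and 558, 546 and 458 CPM in males 2 to 4, each of which lay above each female. Male 1, at 342 CPM, lay inside the range of the females.

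The log2 fold change of *Btg1* was 0.83 (standard error 0.16), a fold of 1.77, and its adjusted p of 0.0508 from edgeR was the lowest of the 36 genes and just outside the threshold. The two-sided exact permutation test gave p = 0.0286, with the same limits as for *Egr4*. *Btg1* was called with DESeq2 (adjusted p = 6.35e-04) and without female 1 (adjusted p = 0.0444). The share of false DESeq2 calls on simulated counts, 36.3%, applies here too. Over the 12 alternatives the adjusted p was between 6.35e-04 and 0.249. The direction was the same in all 12.

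*Myc* and the *Gadd45* genes, which act in growth and in the response to DNA damage and stress, were lower and uneven. *Gadd45g* was 448, 1053, 318 and 263 CPM in the females, 207, 815 and 189.9 CPM in males 2 to 4 and 277 CPM in male 1, so that female 2 and male 3 stood far above the rest of their sex. *Gadd45a* was 33.8 to 82.5 CPM in the females and 18.6 to 38.6 CPM in the 3 males, *Gadd45b* was 16.1 to 85.9 and 16.5 to 24.6 CPM, and *Myc* was 6.199 to 53.8 and 6.19 to 34.5 CPM. None of these 4 genes separated the sexes.

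The ZFP36 proteins bind AU-rich elements and speed the decay of immediate early transcripts. *Zfp36* was 1686, 1443, 1893 and 1671 CPM in the females, 2011, 1684 and 2030.0 CPM in males 2 to 4 and 2396 CPM in male 1, the highest of the 8. It held 68.8% to 77.98% of the family per kilobase in the females and 80.6% to 85.4% in the 3 males, and 76.3% in male 1, inside the range of the females. *Zfp36l1* was 558, 289, 394 and 349 CPM in the females and 258, 287 and 237 CPM in males 2 to 4, with male 1 at 560.5 CPM. *Zfp36l2* was 119.6, 81.1, 78.7 and 84.3 CPM, 74.7, 74.1 and 72.8 CPM and 96.3 CPM in the same order. For both genes the 3 males lay below all females and male 1 did not (*Zfp36l1* log2 fold change -0.64, standard error 0.23, adjusted p = 0.180; *Zfp36l2* -0.33, standard error 0.18, adjusted p = 0.370, both from edgeR). Without female 1 these log2 fold changes were -0.41 and -0.15, and with male 1 included they were -0.25 and -0.20.

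The KLF genes encode zinc finger factors, and *Ier2*, *Ier3* and *Ier5* are small early response genes named for their induction. *Ier2* came next among the 36 genes per kilobase, at 1314 ± 331 CPM per kilobase (SD, n = 7), with 1647, 2112, 2257 and 1285 CPM in the females, 1645, 2267 and 2782 CPM in males 2 to 4 and 800.3 CPM in male 1, the lowest of the 8. *Klf6* was 933, 476, 190.1 and 475 CPM in the females, 454, 499.9 and 656 CPM in the 3 males and 750.1 CPM in male 1, with female 1 the highest and female 3 the lowest. *Ier3* and *Ier5* were 32.3 to 65.3 and 19.4 to 80.0 CPM in the females against 32.6 to 44.9 and 22.5 to 22.8 CPM in the 3 males, and *Klf10* was 70.9 to 89.3 against 32.01 to 137 CPM.

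*Klf2* and *Klf4*, which are also expressed in endothelial cells, were 27.8 to 92.6 and 105 to 237 CPM in the females, 40.1 to 44.5 and 96.9 to 112 CPM in males 2 to 4 and 150.4 and 344 CPM in male 1. In the females, female 1 was the highest for both. All 5 endothelial markers (*Pecam1*, *Cdh5*, *Kdr*, *Emcn* and *Plvap*) had counts in every sample, and their sum was 528 CPM in female 1, 406 to 461 CPM in the other females, 408 to 557 CPM in males 2 to 4 and 689 CPM in male 1. Its part in the levels of *Klf2* and *Klf4* was not tested.

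The remaining genes are effectors and an upstream factor. *Arc*, which acts at synapses, was 1642, 249.5, 383 and 456 CPM in the females, 319, 355 and 441 CPM in males 2 to 4 and 677 CPM in male 1. Female 1 was far above the other 7 samples, and the log2 fold change of -0.90 (standard error 0.64, adjusted p = 0.502 from edgeR) became 0.026 without it. *Socs3*, the feedback inhibitor of cytokine signalling, was 447, 280.1, 298 and 391 CPM in the females and 266, 169.6 and 262 CPM in males 2 to 4, which lay below all females, and 496 CPM in male 1, which lay above them (log2 fold change -0.64, standard error 0.24, adjusted p = 0.204 from edgeR). *Ptgs2*, the inducible cyclooxygenase, was 1.86 to 6.63 CPM in the females and 1.28 to 5.31 CPM in the 3 males. *Srf*, which activates many of the other genes, was 5.68 to 14.3 and 4.98 to 6.11 CPM, and 21.4 CPM in male 1.

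None of the 36 genes was called between the sexes at an adjusted p of 0.05 with edgeR, where 2.34% of the 20152 genes tested were called. At an unadjusted p of 0.05, 8 of the 36 genes passed (22.2%), against 19.9% of all genes tested. Of these 8, 1 was higher in males (2.78% of the 36, against 9.31% of all genes) and 7 were lower (19.4% against 10.6%). The number of the 36 genes that passed was 4 to 10 on leaving out single samples and 2 with male 1 included. With DESeq2, 2 genes (*Btg1* and *Egr4*) were called (5.56%), against 11.6% of all genes. The 3 males and 4 females did not overlap for 9 of the 36 genes (25.0%), against 22.3% of all genes tested. The males were higher for *Btg1* and *Egr2* (5.56%, against 11.5% of all genes) and lower for *Egr1*, *Egr4*, *Jund*, *Maff*, *Socs3*, *Zfp36l1* and *Zfp36l2* (19.4%, against 10.8% of all genes). Of the 7 genes that were lower, *Egr4* alone was also below the females in male 1. The log2 fold change of *Jund* was -0.74 and moved to -0.42 without female 1 and -0.36 with male 1 included. That of *Maff* was -1.49 and moved to -0.81 and -0.74 in the same settings, and that of *Socs3* moved to -0.25 with male 1 included.

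The number of the 36 genes with a negative log2 fold change depended on the samples and the scaling used. The log2 fold change was negative for 27 of the 36 genes (75.0%), against 52.1% of all genes tested, and its median was -0.36 against -0.03 over all genes. Leaving out any 1 of the 7 samples other than female 1 gave a median between -0.48 and -0.33, with 25 to 27 genes negative. Without female 1 the median was -0.16, with 20 genes negative, against -9.1e-04 over all genes. With male 1 included it was -0.0072, with 18 negative, against 0.031 over all genes. With library size alone the median of all genes moved to -0.24 and that of the 36 genes to -0.59, with 32 negative. With a replicate block the 36 genes had a median of -0.15, with 20 negative. Markers of other cells went both ways. All 4 erythroid markers had negative values (median -1.14), and none was at 0. Their sums were 183 to 579 CPM in the females, 80.9 to 222 CPM in males 2 to 4 and 49.6 CPM in male 1. Of the 5 stem and folliculostellate markers, 4 were negative (median -0.84), and the other 1 was called higher in males with edgeR. All 7 markers of other hormone cells were positive (median 1.14, 1 called higher in males), as were 4 of the 5 endothelial markers (median 0.014). The part of these cells was not tested. Of the 7 genes that reached 1000 CPM, *Egr1* (-0.51) and *Fos* (-0.03) had negative values, and *Btg2*, *Ier2*, *Junb*, *Zfp36* and *Jun* lay between 0.16 and 0.30. None of the 7 was called, the sign of *Fos* changed in several settings, and *Junb*, *Zfp36* and *Jun* turned negative with library size alone, where *Btg2* was 0.089 and *Ier2* was 0.043. Without male 4, *Ier2*, *Junb* and *Jun* were 0.062, 0.066 and 0.057.

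**Figure D3:**
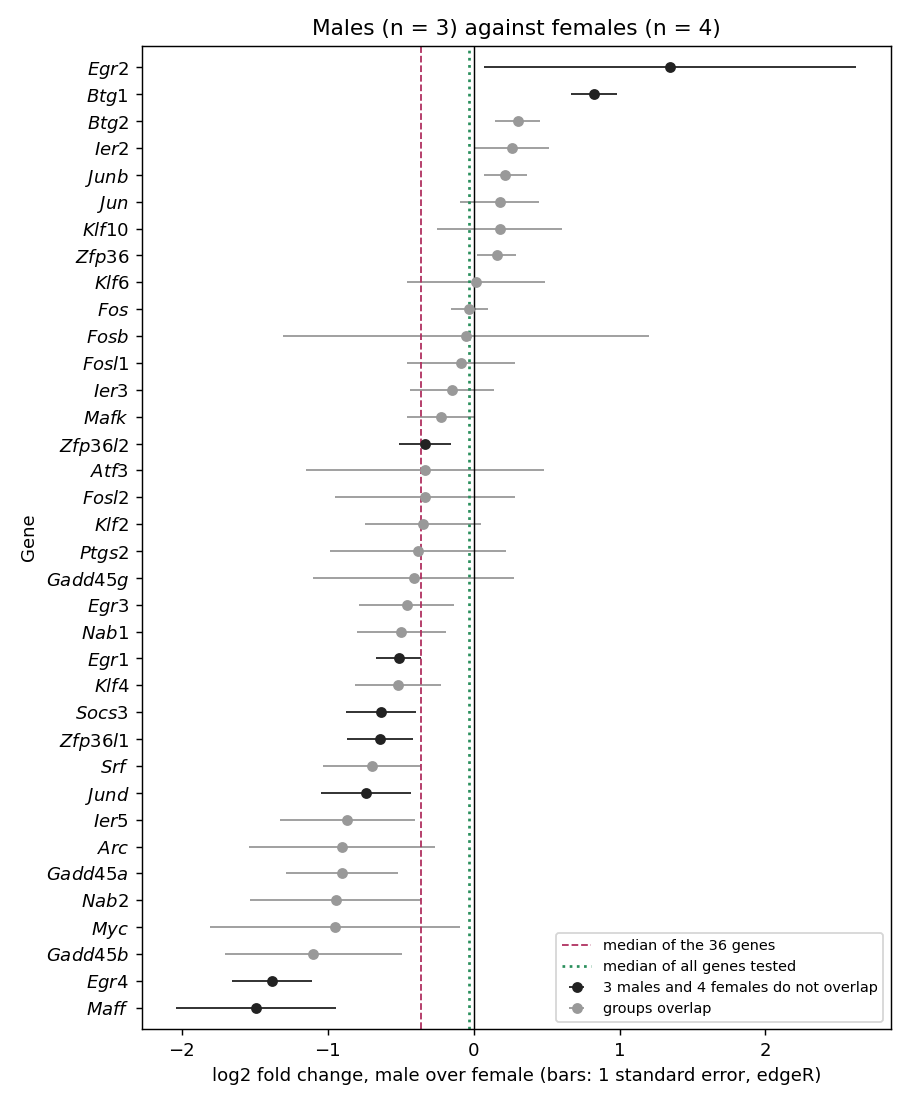
Points are log2 fold changes of males 2 to 4 over the 4 females from edgeR and bars are 1 standard error, in black where the groups do not overlap. The dashed line is the median of the 36 genes (-0.36) and the dotted line that of all genes tested (-0.03), and *Btg1* (0.83) and *Egr4* (-1.38) are far from 0 for their errors.

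The sample with the highest level differed from gene to gene. Of the 36 genes, 13 were highest of the 8 samples in female 1 (36.1%, against 13.04% of all genes tested) and 12 in male 1 (33.3% against 20.7%). Each of the other 6 samples was highest for 1 or 2 genes. Among the 4 females alone, 25 of the 36 genes were highest in female 1 (69.4% against 27.9%). The gene that was lowest in female 1 was *Egr2*, and the gene that was lowest in male 1 was *Ier2*. Female 2 was the lowest of the 8 samples for 9 genes (25.0% against 11.4%). No test is given, because each of these is 1 sample.

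**Figure D4:**
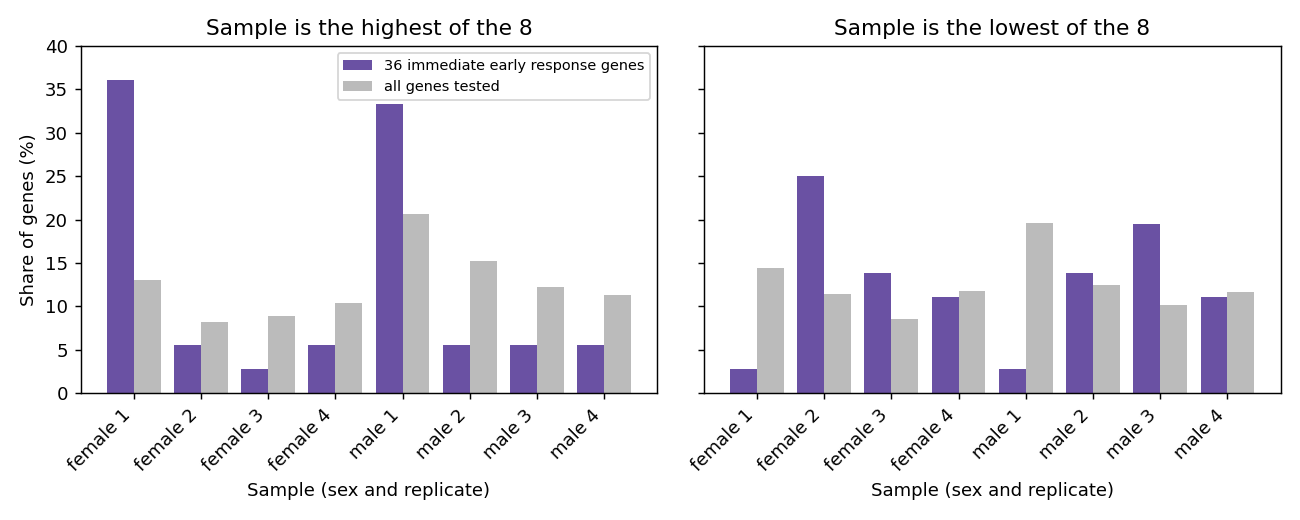
Bars are the share of genes for which each sample has the highest or the lowest level of the 8, for the 36 genes and for the 20152 genes tested. Female 1 is the highest for 36.1% and male 1 for 33.3% of the 36 genes, and both are the lowest for 2.78%.

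Some other measures moved with these samples, and others did not. Among the females, female 1 had the lowest sum of gonadotrope markers, at 21488 CPM against 27538 to 34863 CPM. Among the males, that sum was lowest in male 1, at 28423 CPM, where the other males had 67929.6 to 75717 CPM. Among the females, female 1 also had the highest sum of 9 heat shock genes, which also rise on dissociation and heat, at 9531 CPM against 3502 to 5284 CPM. The nuclear RNA *Neat1* was 77.3 CPM in female 1, 29.9 to 34.8 CPM in the other females, 359 CPM in male 1 and 29.3 to 41.04 CPM in the other males. The 5 stem and folliculostellate markers summed to 245 CPM in female 1, 118 to 148 CPM in the other females, 225 CPM in male 1 and 146 to 165 CPM in the other males, with none of the 5 at 0. The heat shock sum was 8357 to 10911 CPM in males 2 to 4 and 7330.2 CPM in male 1, the lowest of the 4 males. The part of these measures in the order of the samples was not tested.

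Spread within a sex differed among the 36 genes. The pooled SD of log2(CPM + 1) within the sexes had a median of 0.436 over the 36 genes and 0.328 over all genes tested. It was 0.134 for *Fos*, 0.157 for *Zfp36* and 0.158 for *Junb*, and it was largest for *Fosb* (2.33), *Egr2* (1.73) and *Atf3* (1.49). The females had the larger coefficient of variation for 26 of the 36 genes, against 56.5% of all genes tested. *Ier5*, at 19.4 to 80.0 CPM in the females and 22.5 to 22.8 CPM in males 2 to 4, was the most even gene in the males.

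Wide ranges were also seen in genes that every cell uses. Of the 1574 genes with a mean of at least 100 CPM over the 7 samples, 96 (6.099%) had a highest sample more than 30 times the lowest, and *Fosb* was 1 of them, at 54.2 times. Among 19 genes for cytosolic ribosomal proteins at that level, 2 did so. *Rpl29* was 2.29 CPM in male 2 and between 96.1 and 151 CPM in the other samples, and *Rpl32* was 6.78 CPM in female 2 and between 79.2 and 227 CPM in the others. The loci of the count table have names of the form that transcript assembly gives, and no other symbol shares a locus with any of the 36 genes. The part of read assignment in the values of *Fosb* and *Egr2* was not tested. *Rpl29*, *Rpl32* and *Fosb* were singled out after their values were seen.

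The rest of the early response was read from 32 further genes. With edgeR, *Spry4* was called higher and *Nr4a2* lower in males, and 30 were not called, against 0.983% of all genes called higher and 1.35% called lower. DESeq2 called 4 of the 32 (12.5%, against 11.6% of all genes). *Nr4a2*, an orphan nuclear receptor, was 151, 178, 176 and 241 CPM in the females, 78.01, 96.6 and 93.8 CPM in males 2 to 4 and 255 CPM in male 1, the highest of the 8 (log2 fold change -1.09, standard error 0.20, adjusted p = 0.0460 from edgeR). *Spry4*, a feedback inhibitor of receptor tyrosine kinase signalling, was 10.4, 8.88, 8.44 and 9.38 CPM in the females, 26.99, 20.6 and 18.4 CPM in males 2 to 4 and 11.8 CPM in male 1 (log2 fold change 1.21, standard error 0.18, adjusted p = 0.0313 from edgeR). Neither call held when any 1 of the 7 samples was left out, with adjusted p between 0.0573 and 0.149 for *Nr4a2* and between 0.0526 and 0.0974 for *Spry4*, nor with male 1 included (adjusted p = 0.748 and 0.161). On leaving out single samples the log2 fold change was -1.16 to -0.92 for *Nr4a2* and 1.05 to 1.32 for *Spry4*. Both calls held with DESeq2 (adjusted p = 1.10e-04 and 6.78e-07) and in edgeR with library size only (adjusted p = 0.0232 and 0.0413), and that of *Spry4* with no filter beyond 1 count (adjusted p = 0.0488). The median log2 fold change of the 32 genes was 0.07.

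The 3 highest of these 32 genes by CPM were *Ccn1*, *Nr4a1* and *Dusp1*. *Ccn1*, a secreted matrix protein, was 1148, 384, 669.9 and 491 CPM in the females and 549.6 to 608 CPM in males 2 to 4, and *Nr4a1* was 433 to 654 and 572 to 605 CPM. *Dusp1*, which removes phosphate from MAP kinases, was uneven, at 500.5, 54.8, 516 and 396 CPM in the females, 381, 821 and 177 CPM in males 2 to 4 and 77.7 CPM in male 1. None of 9 upstream regulators was called with edgeR or DESeq2, and 2 passed at an unadjusted p of 0.05 (22.2%, against 19.9% of all genes). *Crebbp*, a coactivator of CREB, was 150.4 to 249.6 CPM in the females and 257 to 319 CPM in the 3 males, *Mrtfb*, a partner of SRF, was 72.5 to 140.3 and 111 to 158 CPM, and *Creb1* ranged from 5.52 to 77.6 CPM in the females and 11.7 to 85.2 CPM in the 3 males.

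None of the 9 heat shock genes was called with edgeR. At an unadjusted p of 0.05, 2 passed (22.2%, against 19.9% of all genes), and DESeq2 called 1 of them, *Hspa8* (11.1% against 11.6%). *Hspa1a*, the inducible chaperone, was 3177, 1096, 1204 and 760.3 CPM in the females and 2659.6, 2874 and 3849 CPM in males 2 to 4. Its value is uncertain, because reads could be divided between it and its near-identical copy *Hspa1b*. *Dnajb1*, its cochaperone, was 2572, 911, 1385 and 824 CPM and 1852, 2000.1 and 2808 CPM, and *Hspa8*, the constitutive form, was 829.8 to 1267 and 1646 to 1757 CPM (log2 fold change 0.64, standard error 0.17, adjusted p = 0.0941 from edgeR; 0.42 with library size only). Of the 9 genes, 8 had a positive log2 fold change, with a median of 0.62, whereas 9 of the 36 immediate early response genes and 47.9% of all genes tested did. With library size only the median of the 9 was 0.38. Without female 1 the log2 fold change of *Dnajb1* moved from 0.62 to 1.09 and that of *Hspa1a* from 0.98 to 1.61.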

How the data were processed

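RNA of sorted gonadotropes was sequenced from 4 female and 4 male samples. Raw counts by gene were deposited, with a column for each sample. By the authors' methods, reads were trimmed with cutadapt, mapped to mm10 with STAR and counted with featureCounts. The annotation is not given in the sources used here. Of 2 entries named *Junb*, the one with the larger count was used.

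CPM were computed with TMM factors over the 8 samples in edgeR (version 4.0.16, R 4.3.3). Males 2 to 4 were compared with the females by edgeR's quasi-likelihood test over the whole table, after filterByExpr on 20152 genes; p-values were adjusted by Benjamini-Hochberg and 0.05 was the limit. The standard error is the log2 fold change divided by the square root of F. The exact permutation test used mean log2(CPM + 1) over 35 splits. On simulated counts for this comparison (19235 genes, 191 with a log2 change of 3), edgeR recovered 71.7%, and 6.16% of its calls were false. DESeq2 recovered 85.3%, and 36.3% of its calls were false. No smaller change was simulated. These rates therefore do not give the power for changes of the size seen in the 36 genes, the largest being -1.49 for *Maff*. Alternatives were DESeq2 (version 1.42.0), library size only, no filter beyond 1 count, all 8 samples, a replicate block and each replicate left out. Summing both *Junb* entries was added after the data were seen.

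The genes and lists were chosen with earlier results of these data known. Sample values are given for genes called or not overlapping between the sexes, and the 10 highest by CPM over the 8 samples; other genes of the 36 given by sample (*Fosb*, *Gadd45g*) were added after their values were seen. Of 3 further lists, genes called and the 3 highest are named.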

Additional observations from a re-analysis of the deposited data

Results flagged for a closer look

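In 72 groups of 4 samples (36 genes in each sex, with all 4 males), 17 had a sample far from the others. The measure was Dixon's critical value for the gap to the nearest relative to the range, whose nominal rate gives about 3.60. The 72 groups share the same 8 libraries. The same count over all genes tested was not made, so an excess particular to the 36 genes is not shown. Male 1 was the highest of the 8 samples for 20.7% and the lowest for 19.6% of all genes tested. Of the 17, 13 were in male 1, which was the highest male in 12 and the lowest in 1. Its levels, with the range of the other 3 males, were 1426 CPM for *Fosb* (others 292 to 317), 560.5 CPM for *Zfp36l1* (others 237 to 287), 344 CPM for *Klf4* (others 96.9 to 112), 150.4 CPM for *Klf2* (others 40.1 to 44.5), 128 CPM for *Jund* (others 59.6 to 62.7) and 108 CPM for *Egr3* (others 31.2 to 43.4). For the lower genes they were 96.3 CPM for *Zfp36l2* (others 72.8 to 74.7), 82.3 CPM for *Mafk* (others 40.02 to 46.3), 79.5 CPM for *Gadd45b* (others 16.5 to 24.6), 54.4 CPM for *Ier5* (others 22.5 to 22.8), 34.1 CPM for *Maff* (others 8.76 to 10.4) and 21.4 CPM for *Srf* (others 4.98 to 6.11). *Egr2* in male 1 was low, at 10.6 CPM against 38.4 to 41.8 CPM. Female 1 was far above the other females in 3 groups, at 1642 CPM for *Arc* (others 249.5 to 456), 65.3 CPM for *Ier3* (others 32.3 to 36.1) and 119.6 CPM for *Zfp36l2* (others 78.7 to 84.3). In male 3, *Gadd45g* reached 815 CPM, with the other males at 189.9 to 277 CPM. Explanations were not tested. Both libraries with more than 1 such value are those that were highest for the most genes of the 36.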

How the results depend on the processing

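The number of genes called between the sexes was 471 with edgeR (198 higher in males, 42.0%), 2329 with DESeq2, 808 with library size only (133 higher, 16.5%), 177 with no filter beyond 1 count, 67 with all 8 samples and 0 with a replicate block, and 88 to 171 on leaving out single replicates. The number of the 36 genes called was 0 with edgeR, 2 with DESeq2 and 1 with library size only, and 0 to 1 on leaving out single replicates. Among all 36 genes, the log2 fold change had another sign than in the comparison as reported for 9 genes with all 8 samples, 5 with library size only, 7 with a replicate block and 13 on leaving out 1 or another single replicate, 19 in all. The replicate numbers mark no shared animal or day in the labels. The deviations of same-numbered samples correlated between -0.0267 and -0.00163 over 3 pairs, so the numbers were not taken to pair samples, and a replicate block left 0 genes called. With library size only, the log2 fold change of genes named in the text changed sign, among others, to -8.9e-04 for *Junb*, -0.055 for *Zfp36*, -0.046 for *Jun*, -0.22 for *Klf6* and -0.043 for *Nr4a1*. With all 8 samples, the log2 fold change of genes named in the text changed sign, among others, to 0.019 for *Fos*, 0.92 for *Fosb* and -0.020 for *Dusp1*. With a replicate block, the log2 fold change of genes named in the text changed sign, among others, to 0.016 for *Fos*, 0.86 for *Atf3*, 0.030 for *Arc*, 0.39 for *Fosb* and 0.16 for *Ccn1*. With a replicate left out it changed sign, among others, within -0.071 to 0.035 for *Fos*, -0.69 to 0.41 for *Atf3*, -1.16 to 0.026 for *Arc*, -0.24 to 0.48 for *Klf6*, -0.43 to 0.61 for *Fosb*, -0.42 to 0.68 for *Dusp1* and -0.43 to 0.15 for *Ccn1*. None of these was called in any setting. The call of *Nr4a2* was also lost with no filter beyond 1 count (adjusted p = 0.0709) and with a replicate block (adjusted p = 0.227), and that of *Spry4* with the block (adjusted p = 0.227), both from edgeR. The cause was not tested. Summing both *Junb* entries, an alternative chosen after seeing the data, gave 1734 to 2567 CPM over the 8 samples.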

Other observations

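Further early response genes spread widely between samples of one sex, as singled out after their values were seen. *Npas4*, an activity-dependent factor of neurons, was 369, 144, 4.94 and 208 CPM in females 1 to 4, 75.7, 16.7 and 6.72 CPM in males 2 to 4 and 214 CPM in male 1. *Sgk1*, a kinase induced by glucocorticoids, was 73.9, 43.3, 2.33 and 45.7 CPM, 4.69, 1.43 and 73.97 CPM and 56.2 CPM in the same order. *Crem*, whose inducible form ends the cAMP response, was 1.497, 43.9, 53.6 and 90.7 CPM, 125, 109 and 146 CPM and 52.7 CPM, so that female 1 was far below the other samples. *Crem* and *Egr2* were thus both lowest in the library in which 13 of the 36 immediate early response genes were highest. The 3 males and 4 females did not overlap for 7 of the 32 further genes (21.9%, against 22.3% of all genes tested). Males were higher for 5 (15.6% against 11.5%) and lower for 2 (6.25% against 10.8%). *Dusp6*, a phosphatase of MAP kinases, and *Plk2*, a kinase of the early response, were higher in each of males 2 to 4 than in each female. Neither was called by edgeR. *Dusp6* was 27.95 to 55.2 CPM in the females and 77.6 to 107 CPM in these males (adjusted p = 0.0876), with male 1 at 51.1 CPM, and *Plk2* was 43.7 to 63.4 and 72.3 to 139 CPM (adjusted p = 0.102), with male 1 at 77.5 CPM.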
